A study of Mus musculus with 14 samples.

Results

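Immortalized brown preadipocytes and 3T3-L1 white preadipocytes were compared at 0h, when the brown culture was confluent and no inducer of adipogenesis had been added. Each line had 1 library, so 2 of the 14 libraries of the study carry the comparison and no test was possible. The brown line came from primary preadipocytes of the interscapular brown fat of newborn Ppargf/f pups, whose Pparg alleles are flanked by loxP sites, and was immortalized with SV40 T antigen, a viral protein that binds the Rb and p53 proteins. No Cre recombinase is named in the labels. 3T3-L1 is labelled as immortalized white preadipocytes. As background, it is a mouse embryo fibroblast line of Swiss origin that was selected for its ability to store fat, whereas the labels give the strain C57BL/6J for both lines. Cells were plated 4 days before in DMEM with serum. The labels give the same growth text for all samples and describe only the origin of the brown line. The culture of 3T3-L1, its confluence at 0h included, is therefore less certain.

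Of 22836 gene symbols, 10920 had a level of at least 2 RPKM (reads per kilobase of transcript, scaled to library size) in at least 1 of the 2 libraries and are called measured. A gene counted as different when log2(RPKM + 1) differed by at least 1 between the lines and the higher RPKM was at least 2. All differences below are brown minus 3T3-L1 on the log2(RPKM + 1) scale, which understates the change of low genes. By this rule 944 genes were higher in brown cells (8.64% of measured genes) and 806 were lower (7.38%), 1750 in all. The median difference over all measured genes was 0.02, with quartiles of -0.40 and 0.42. A difference of at least 2 was reached by 258 genes higher and 162 lower in brown cells, and one of at least 4 by 38 and 9. Across genes, which are not independent replicates, the levels had a Pearson r of 0.83. Just inside the threshold lay Map3k1, at 2.64 RPKM in brown cells and 0.82 RPKM in 3T3-L1, and just outside lay Hdgf, at 231 and 115 RPKM.

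Preadipocytes are committed fibroblast-like cells that become fat cells when the nuclear receptor Pparg and the C/EBP factors are switched on. Brown preadipocytes of the interscapular depot descend from somite cells that share ancestry with skeletal muscle, and give rise to cells that burn fuel through the uncoupling protein Ucp1. HOX genes and other patterning factors are known to keep a record of the body position a mesenchymal cell comes from.

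The depth was 74.6 M reads (M, mega) in the brown library and 51.6 M reads in the 3T3-L1 library, as recovered from the steps between low RPKM values. A level of 1 RPKM on a 2 kb transcript was therefore about 149 reads in brown cells and 103 reads in 3T3-L1. Both libraries had fibroblast transcripts at high levels, with vimentin (Vim) at 1644 RPKM in brown cells and 1815 RPKM in 3T3-L1. None of the 6 endothelial, 6 epithelial or 9 cartilage and bone markers was measured. Their summed levels were 0.67, 0.31 and 1.70 RPKM in brown cells and 0.12, 0.03 and 0.59 RPKM in 3T3-L1. Some epithelial genes outside these lists were measured. The keratin Krt19 was at 14.7 RPKM in brown cells and 0.06 RPKM in 3T3-L1, and Lor at 7.37 RPKM and listed at 0. Of 7 immune markers only Cd14 was measured, at 3.31 RPKM in brown cells and 4.09 RPKM in 3T3-L1. Of 30 genes of brown preadipocytes and thermogenesis 7 were measured, 4 higher and 3 lower in brown cells. Over all measured genes 8.64% were higher and 7.38% lower. Ucp1 was at 0.02 RPKM in brown cells and listed at 0 in 3T3-L1. Kcnk3, a potassium channel abundant in brown fat, was lower, at 0.17 RPKM in brown cells against 8.01 RPKM in 3T3-L1, and the coactivator Ppargc1a, below the floor of 2 RPKM, was at 0.23 against 1.98 RPKM. With bulk RNA, fewer cells that express a gene and less RNA per cell cannot be told apart.

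**Figure D1:**
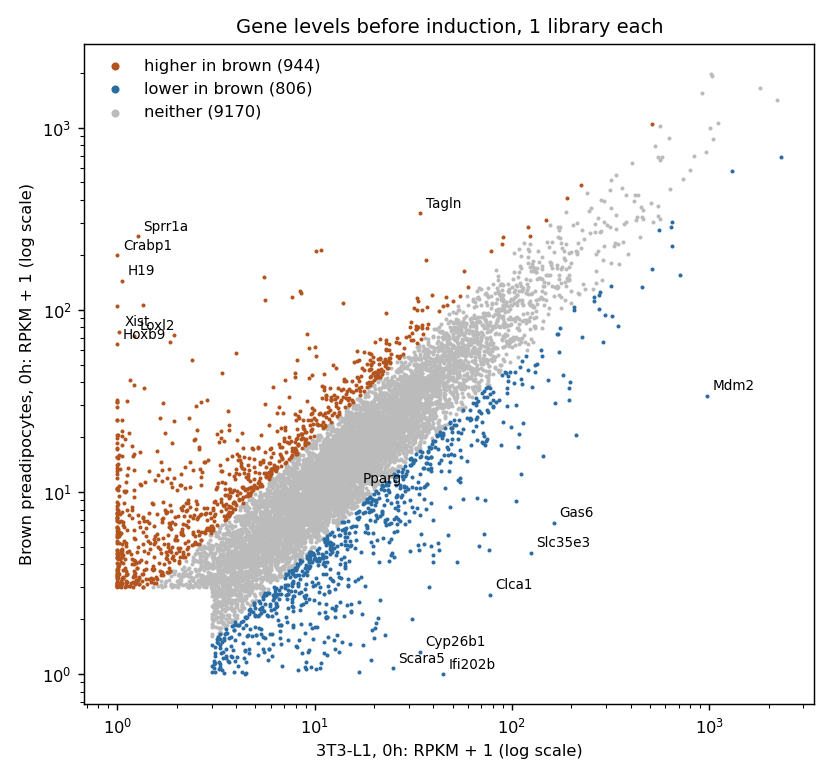
Level of each of the 10920 measured genes in 3T3-L1 (horizontal axis) and in brown preadipocytes (vertical axis) at 0h, as RPKM + 1 on log axes, 1 library each. The 944 genes higher in brown cells are orange, the 806 lower ones blue and the rest grey; Sprr1a, Crabp1 and H19 lie far above the diagonal and Mdm2 and Ifi202b far below it.

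Many of the genes with the largest differences were present in one line and near 0 in the other. Sprr1a, a cornified envelope protein of stressed epithelia, was at 253 RPKM in brown cells and 0.27 RPKM in 3T3-L1. Crabp1, which binds retinoic acid in the cytosol, was at 198 RPKM in brown cells and listed at 0 in 3T3-L1. Matrix enzymes followed, the lysyl oxidase Loxl2 at 71.1 against 0.22 RPKM and the serine protease Htra1 at 71.9 against 0.93 RPKM. Nestin (Nes), an intermediate filament of progenitor cells, was at 66.0 against 0.84 RPKM. In the other direction, Ifi202b, an interferon-inducible DNA-binding protein, was listed at 0 in brown cells and was at 43.9 RPKM in 3T3-L1. Clca1 was at 1.73 RPKM in brown cells and 76.7 RPKM in 3T3-L1. Cyp26b1, which breaks down retinoic acid, was at 0.33 against 33.1 RPKM, and Gas6, a ligand of the TAM receptors, at 5.78 against 163 RPKM. Scara5, a ferritin receptor, was at 0.08 against 24.01 RPKM.

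HOX genes separated the lines by cluster rather than as a family. Of 26 measured HOX genes, 14 were higher and 4 lower in brown cells, beside 8.64% and 7.38% of all measured genes. All 8 measured genes of cluster B were higher in brown cells, with a summed level of the cluster of 156 RPKM against 9.64 RPKM in 3T3-L1. Hoxb9 was at 63.9 RPKM in brown cells and listed at 0 in 3T3-L1, and Hoxb8 was at 20.6 against 0.06 RPKM. At the start of the cluster the 3T3-L1 levels were not at 0: Hoxb2 was at 12.2 RPKM in brown cells and 3.65 RPKM in 3T3-L1, and Hoxb4 at 9.21 against 2.91 RPKM. In cluster C, 6 of 7 measured genes were higher in brown cells. Hoxc6 was at 23.7 against 0.05 RPKM and Hoxc10 at 2.96 against 0.02 RPKM, while Hoxc13, the last of the cluster, was lower, at 1.62 RPKM in brown cells against 5.23 RPKM in 3T3-L1. Clusters A and D went the other way in their sums, at 27.1 and 15.3 RPKM in brown cells against 57.7 and 27.5 RPKM in 3T3-L1. No measured gene of these clusters was higher in brown cells by the threshold. In cluster A 3 of 7 measured genes were lower by it, and in cluster D 0 of 4. Hoxa2 was lower, at 4.45 against 19.7 RPKM, and so was Hoxa7, at 3.23 against 9.53 RPKM. Cluster A lies on chromosome 6 and cluster C on chromosome 15, the chromosomes with the lowest and highest median difference. The median was -0.64 for measured genes of cluster A and -0.48 for those of chromosome 6. It was 3.13 for cluster C and 0.47 for chromosome 15. A link between cluster and chromosome was not tested.

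**Figure D2:**
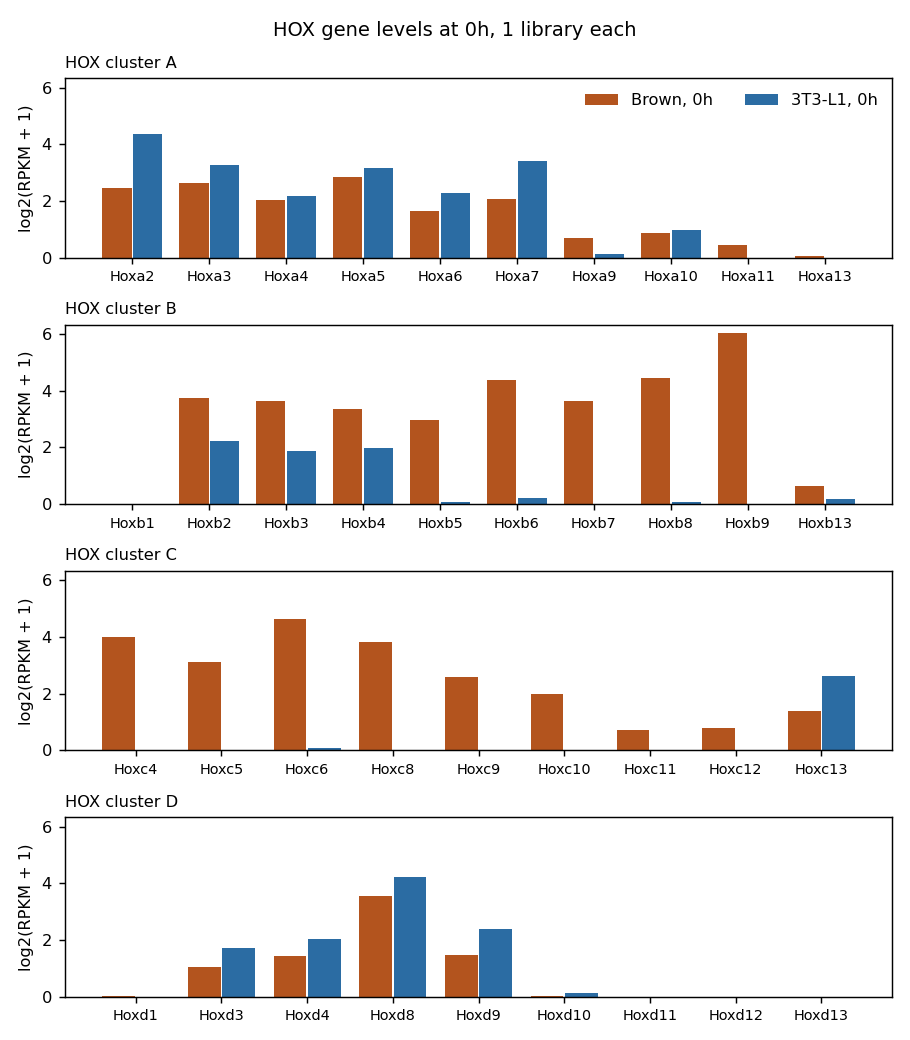
Level of 38 HOX genes at 0h as log2(RPKM + 1), by cluster from the first to the last paralogue, in brown cells (orange, left of each pair) and 3T3-L1 (blue, right), 1 library each. In clusters B and C tall orange bars stand beside blue bars at or near 0 from Hoxb5 to Hoxb9 and from Hoxc4 to Hoxc10, while in clusters A and D the blue bars are mostly the taller ones.

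Among 14 measured factors of the brown and somite lineage, 6 were higher and 2 lower in brown cells. Of all measured genes 8.64% were higher and 7.38% lower. Lhx8, Six2 and Zic1, which in other studies mark brown or somite-derived cells, were at 6.69, 5.46 and 3.37 RPKM in brown cells and each was listed at 0 in 3T3-L1. Tbx15, a T-box factor of the dorsal body wall, was at 57.3 against 16.8 RPKM, Pax3 at 8.67 against 2.59 RPKM, and Ebf2, an early factor of brown commitment, at 4.73 against 1.46 RPKM. Zfp423, known for its role in preadipocyte commitment and in the white fate, was at 0.78 RPKM in brown cells and 8.71 RPKM in 3T3-L1. Eya1, a coactivator in muscle development, was at 2.31 against 13.7 RPKM. En1 did not pass, at 16.4 against 9.21 RPKM, and Prdm16, a coregulator of the brown programme, was at 0.89 RPKM in brown cells and listed at 0 in 3T3-L1, below the floor of 2 RPKM. Myf5 was at 0.01 RPKM in brown cells and listed at 0 in 3T3-L1. Of 42 measured patterning factors of other mesenchyme, 10 were higher and 7 lower in brown cells. Runx3, a runt-domain factor, was at 6.19 RPKM in brown cells and listed at 0 in 3T3-L1, whereas the homeobox factors Meis1 and Meis2 were at 6.48 and 9.53 RPKM in brown cells and 19.4 and 31.7 RPKM in 3T3-L1.

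Most measured cell cycle genes were higher in brown cells. Of 45 measured DNA replication genes 28 were higher and 0 lower in brown cells, with a median difference of 1.07, beside 8.64% higher and a median of 0.02 over all measured genes. Of 40 measured mitosis genes 26 were higher and 0 lower, with a median of 1.14. Among the helicase subunits that unwind replication origins, Mcm6 was at 81.6 RPKM in brown cells and 34.1 RPKM in 3T3-L1, and Mcm7 at 45.9 against 16.9 RPKM. Cdc6, which loads that helicase, was at 6.41 against 1.32 RPKM. The proliferation marker Mki67 was at 68.9 against 25.02 RPKM and the mitotic kinase Aurkb at 25.7 against 8.60 RPKM. Pttg1, securin, was the mitosis gene with a difference below 0, at 11.5 RPKM in brown cells against 18.0 RPKM in 3T3-L1, and did not pass. Of 21 measured CDK inhibitors, cyclins and pocket proteins 4 were higher and 1 lower: Cdkn1c (p57) was at 19.5 against 0.01 RPKM, Cdkn1b (p27) at 24.1 against 61.0 RPKM, and Cdkn2a did not pass, at 247 against 173 RPKM.

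E2F factors drive replication genes through short promoter words, so the windows of these genes were searched. The windows run from 250 bases before to 50 bases after the start of each gene, from RefSeq on GRCm38.p6, 1 per gene. The words were TTTCCCGC and TTTGGCGC on either strand. Of 36 DNA replication genes with a window 12 held a word (33.3%), and of the 20 of these that were higher in brown cells 6 did (30%), beside 1.63% of all 27025 windows and 3.37% of the 7766 windows of measured genes. None of 34 mitosis genes held one. A match describes the letters and is no evidence of binding. The windows of 3 called genes are shown around the match, in capitals, 5′ to 3′ on the gene's strand: Cdc6 at chr11:98907973-98908060 (plus), Mcm7 at chr5:138172001-138172088 (minus) and Mcm6 at chr1:128359705-128359855 (minus).
Cdc6: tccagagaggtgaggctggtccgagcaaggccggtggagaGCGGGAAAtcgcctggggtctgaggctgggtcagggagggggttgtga
Mcm7: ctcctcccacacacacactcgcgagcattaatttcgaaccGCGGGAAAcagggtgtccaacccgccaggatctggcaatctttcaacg
Mcm6: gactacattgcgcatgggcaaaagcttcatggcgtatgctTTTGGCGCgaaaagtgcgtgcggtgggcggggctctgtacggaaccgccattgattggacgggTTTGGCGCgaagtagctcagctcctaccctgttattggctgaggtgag

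Of the 41 gene lists compared, interferon-stimulated genes had the most members lower in brown cells. Of 45 measured, 35 were lower and 1 higher, with a median difference of -1.54, beside 7.38% lower over all measured genes. Ifit3 and Ifi44, antiviral proteins, were at 3.79 and 0.63 RPKM in brown cells and 32.6 and 21.8 RPKM in 3T3-L1. Bst2 (tetherin) was at 29.8 against 165 RPKM and the GTPase Mx2 at 0.50 against 10.1 RPKM. The transcription factors of the interferon response were lower as well, with Stat2 at 6.62 against 27.7 RPKM and Irf7 at 3.10 against 20.3 RPKM. Oasl1 was the exception that was higher, at 4.21 RPKM in brown cells and 0.05 RPKM in 3T3-L1. MHC class I and antigen-processing genes had 7 of 12 measured members lower and 0 higher, among them H2-K1 at 20.1 against 54.0 RPKM and B2m, the shared light chain, at 272 against 557 RPKM. H2 genes are near-identical to each other, so their values are uncertain. Chemokines were split, with 4 of 15 higher and 4 lower: Cxcl10 was at 18.3 against 3.02 RPKM, and Cxcl5 at 0.07 against 9.12 RPKM.

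Interferon-response elements hold the word GAAA repeated at a distance of 2 bases, and that pattern was searched on either strand in the same windows. It was present in 18 of 34 interferon-stimulated genes with a window (52.9%) and in 12 of the 24 of these that were lower in brown cells (50%), beside 3.49% of all windows and 2.92% of those of measured genes. For 3 genes lower in brown cells the match is in capitals: Ifit3 at chr19:34583333-34583456 (plus), Bst2 at chr8:71537547-71537642 (minus), where matches overlap, and Stat2 at chr10:128270248-128270325 (plus).
Ifit3: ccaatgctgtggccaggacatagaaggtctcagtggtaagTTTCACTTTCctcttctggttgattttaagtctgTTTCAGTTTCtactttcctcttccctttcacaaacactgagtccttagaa
Bst2: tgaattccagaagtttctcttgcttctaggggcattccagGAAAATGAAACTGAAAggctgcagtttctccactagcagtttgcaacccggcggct
Stat2: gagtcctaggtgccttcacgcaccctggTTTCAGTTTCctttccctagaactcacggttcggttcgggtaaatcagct

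**Figure D3:**
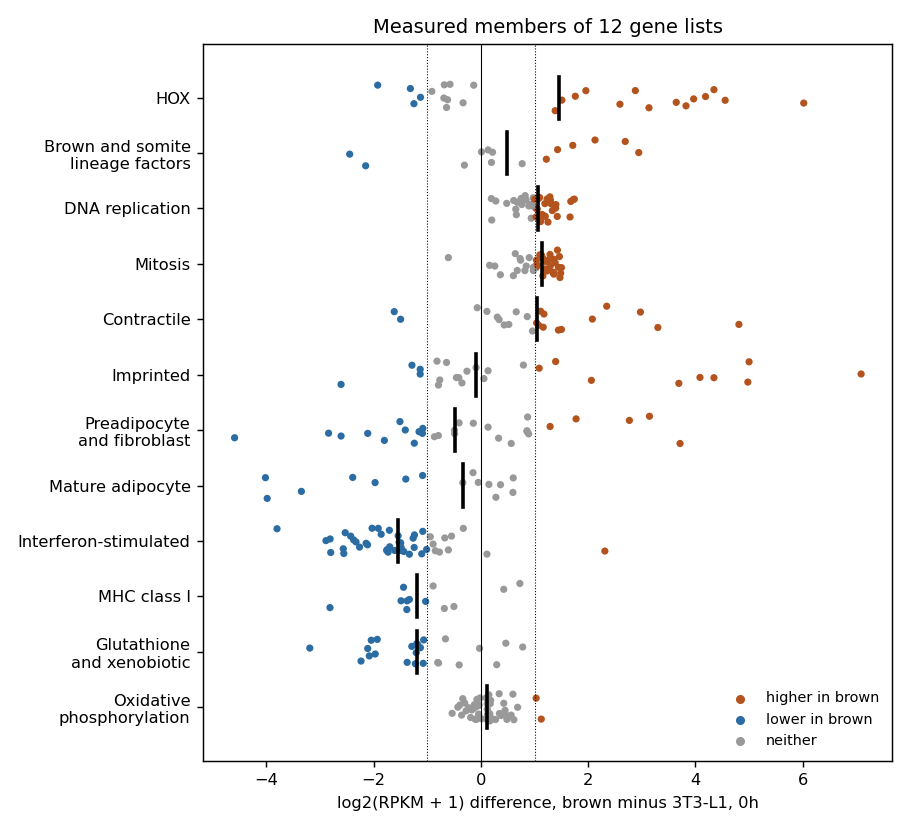
Difference in log2(RPKM + 1), brown minus 3T3-L1 at 0h, of each measured member of 12 gene lists (points), with the list's median as a black bar and the threshold of 1 as dotted lines. Points of the DNA replication and mitosis lists cluster just around 1, the HOX list is split, and the interferon-stimulated list has its median at -1.54.

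Contractile genes were higher in brown cells in 12 of 23 measured members and lower in 2, with a median difference of 1.04. Over all measured genes 8.64% were higher and 7.38% lower. Cnn1 (calponin), a late marker of smooth muscle, was at 30.4 RPKM in brown cells and 0.12 RPKM in 3T3-L1. Myh11, a further smooth muscle marker, was near 0 in both lines, at 0.12 and 0.10 RPKM. Tagln was at 337 against 33.3 RPKM, the tropomyosin Tpm2 at 108 against 12.9 RPKM, and smooth muscle actin (Acta2) at 1048 against 509 RPKM. Mylk, the myosin light chain kinase, was lower, at 0.64 against 4.03 RPKM. Of 18 targets of YAP and SRF, 5 were higher and 1 lower: Ankrd1 was at 113 against 4.61 RPKM and Ctgf at 211 against 9.81 RPKM, while Cyr61 did not pass, at 349 against 244 RPKM. Of 6 pericyte markers 3 were measured and 2 were higher, Cspg4 (NG2) at 19.4 against 0.06 RPKM and Mcam at 16.7 against 1.60 RPKM. Notch3 did not pass, at 5 against 2.14 RPKM. Rgs5 was below the floor of 2 RPKM, at 0.08 against 0.03 RPKM. Tubb3, a neuronal tubulin, was at 11.0 against 0.79 RPKM. Of 3 measured markers of muscle cells in general, Acta1 was higher, at 11.7 against 4.66 RPKM. Tnnt2 and Des, the last also a smooth muscle marker, were lower. They were at 1.39 and 0.26 RPKM in brown cells against 7.51 and 2.56 RPKM in 3T3-L1.

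Genes of the matrix moved in both directions, beside shares of 8.64% higher and 7.38% lower over all measured genes. Of 19 measured collagens 3 were higher and 6 lower in brown cells. The basement membrane chains Col4a1 and Col4a2 were at 92.9 and 70.3 RPKM in brown cells and 297 and 225 RPKM in 3T3-L1, and Col8a1 was at 41.5 against 8.40 RPKM. Col1a1 did not pass, at 1060.4 against 1111 RPKM, although Col1a2, whose product joins it in the same trimer, was lower, at 577 against 1306 RPKM. Of 47 glycoproteins and proteoglycans 10 were higher and 9 lower, with tenascin C (Tnc) at 208 against 9.13 RPKM and Sparcl1 at 0.80 against 19.3 RPKM. Of 32 proteases and inhibitors 7 were higher and 8 lower. Mmp2 was at 80.6 against 343 RPKM and the crosslinking enzyme Lox at 167 against 513 RPKM, opposite to Loxl2.

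Genes of fat cells and their precursors had more members lower than higher in brown cells. Of 15 measured genes of mature adipocytes 0 were higher and 7 lower: the fatty acid carrier Cd36 was at 0.03 RPKM in brown cells and 15.7 RPKM in 3T3-L1, lipoprotein lipase (Lpl) at 19.7 against 209 RPKM and Fabp4 at 19.8 against 108 RPKM. Angptl4, a secreted inhibitor of lipoprotein lipase, was at 3.82 against 75.4 RPKM. Genes of lipid synthesis in the same list did not pass, with Scd1 at 84.8 against 76.4 RPKM. Of 29 preadipocyte and fibroblast genes 5 were higher and 11 lower. Pdgfra, a receptor of adipocyte progenitors, was at 5.96 against 29.1 RPKM and Dlk1 (Pref-1), an inhibitor of adipogenesis, at 30.8 against 193 RPKM. Cd34 and Eng were higher, at 14.7 and 13.7 RPKM in brown cells against 0.20 and 0.66 RPKM in 3T3-L1. Of 20 adipogenic factors 1 was higher and 3 lower, the last including Cebpb, at 49.0 against 130.2 RPKM. Of 21 antagonists of adipogenesis 3 were higher and 2 lower. Among all measured genes the shares were 8.64% higher and 7.38% lower. Pparg did not pass, at 9.50 RPKM in brown cells and 15.4 RPKM in 3T3-L1. Neither did Klf4, at 8.40 against 11.4 RPKM, nor Egr2, at 9.39 against 6.74 RPKM, the early factors that act upstream in adipogenesis.

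Imprinted genes, expressed from 1 parental copy, held some of the largest differences. Of 25 measured, 9 were higher and 4 lower in brown cells, beside 8.64% and 7.38% of all measured genes. The median of the list was -0.09. H19, a noncoding RNA, was at 143 RPKM in brown cells and 0.06 RPKM in 3T3-L1, and Mir675, whose row lies inside H19 and shares its reads, at 104 RPKM and listed at 0. At the Dlk1 domain of chromosome 12 the genes parted: the noncoding RNAs Meg3 and Rian were at 31.0 and 17.0 RPKM in brown cells, against a listing at 0 and 0.06 RPKM in 3T3-L1, while their neighbour Dlk1 was lower. Grb10, an adaptor that dampens insulin and growth factor receptors, was at 37.4 against 0.22 RPKM and Plagl1, a zinc finger factor, at 12.3 against 0.03 RPKM. Igf2, which neighbours H19, was at 1.85 RPKM in brown cells and 0.03 RPKM in 3T3-L1. Of the genes of the sex chromosomes, Xist and its antisense Tsix were at 74.8 and 18.8 RPKM in brown cells, against 0.02 RPKM and a listing at 0 in 3T3-L1. Whether the counting used strand is not stated, and reads of Xist and Tsix cannot be told apart. Y-linked Ddx3y was at 0.22 RPKM in brown cells and 0.01 RPKM in 3T3-L1, and Kdm5d at 0.05 RPKM and listed at 0.

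Mdm2, the ubiquitin ligase that degrades p53, was the gene lower in brown cells with the highest level in 3T3-L1 among those with a difference beyond 4, at 32.8 against 974 RPKM. Slc35e3, which adjoins it on chromosome 10, was also lower, at 3.64 against 124 RPKM. The genes on either side did not pass. Cpsf6 was at 17.4 RPKM in brown cells and 12.6 RPKM in 3T3-L1, Nup107 at 16.9 against 8.04 RPKM and Rap1b at 61.8 against 58.3 RPKM. Cpm, directly beside Mdm2, was at 0.08 against 0.51 RPKM, with its higher level below the floor of 2 RPKM. The same held for Lyz2, at 0.05 against 1.21 RPKM, and Lyz1, listed at 0 in brown cells and at 0.17 RPKM in 3T3-L1. Trp53 itself did not pass, at 61.8 against 52.5 RPKM. Of 30 measured genes of p53 and its targets 3 were higher and 4 lower, beside 8.64% and 7.38% of all measured genes. The median of the list was -0.58. Cdkn1a (p21) was at 68.0 against 124 RPKM and did not pass, and the proapoptotic Pmaip1 (Noxa) was at 5.91 RPKM in brown cells and listed at 0 in 3T3-L1.

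Genes of glutathione and xenobiotic metabolism were lower in brown cells in 16 of 24 measured members and higher in 0, with a median of -1.19. The shares over all measured genes were 7.38% lower and 8.64% higher. Mgst1, a microsomal glutathione transferase, was at 14.8 against 143 RPKM, and Nqo1 at 9.29 against 22.6 RPKM. Heme oxygenase (Hmox1) was at 42.8 against 180 RPKM. Few genes of core energy metabolism passed: 2 of 52 oxidative phosphorylation genes were higher and 0 lower, with a median of 0.11, and of 23 cholesterol synthesis genes 1 was higher and 1 lower. Of 21 glycolysis genes 3 were higher and 2 lower. Eno1 was at 115 against 32.03 RPKM and the lactate exporter Slc16a3 at 15.8 against 0.58 RPKM. The lower ones were the lactate dehydrogenase Ldhb, at 10.4 against 32.3 RPKM, and the pyruvate dehydrogenase kinase Pdk4, at 4.09 against 32.2 RPKM. The mitochondrial carrier Ucp2 was at 3.13 against 51.4 RPKM. Of 60 ribosomal protein genes 4 were higher and 0 lower, the largest being Rps18 at 151 against 4.54 RPKM. Such genes have near-identical copies among which reads may be split, so these 4 values are uncertain.

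Signalling genes differed member by member, beside shares of 8.64% higher and 7.38% lower over all measured genes. Among Wnt genes 7 of 20 were higher and 2 lower, with the receptors Fzd6 at 12.1 RPKM in brown cells and listed at 0 in 3T3-L1 and Ror2 at 12.2 against 0.69 RPKM, and the antagonist Sfrp1 at 4.75 RPKM and listed at 0. The coreceptor Lrp5 was lower, at 23.8 against 60.1 RPKM. Of 26 BMP, TGF-beta and activin genes 9 were higher and 4 lower. The activin-binding Fstl3 was at 9.24 against 0.01 RPKM and its relative follistatin (Fst) at 1.83 against 9.51 RPKM. The BMP antagonist Grem1 was at 101 against 30.8 RPKM, and Id1, a BMP target, at 14.5 against 54.3 RPKM. Of 31 growth factor genes 6 were higher and 4 lower, with Hbegf, an EGF receptor ligand, at 18.7 against 2.34 RPKM and Egfr at 7.17 against 1.74 RPKM. Among IGF binding proteins Igfbp6 was at 26.9 against 2.64 RPKM and Igfbp4 at 8.29 against 65.6 RPKM. Guidance genes had 11 of 36 higher and 5 lower, and adhesion genes 6 of 27 and 5, with P-cadherin (Cdh3) at 7.65 against 0.08 RPKM and the mesenchymal Cdh11 at 29.1 against 104 RPKM. Of 33 G protein-coupled and nuclear receptors 5 were higher and 7 lower, with the adenosine receptor Adora2b at 7.67 against 1.28 RPKM and the mineralocorticoid receptor Nr3c2 at 0.17 against 3.50 RPKM. Of 6 complement genes 1 was higher and 3 lower, with the protease C1ra at 2.09 against 9.05 RPKM.

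Genes present in one line and absent from the other were mostly brown. Of the 10920 measured genes, 74 had at least 5 RPKM in brown cells and at most 0.1 RPKM in 3T3-L1 at 0h, and 9 had the reverse. This criterion was chosen after the values were seen. Of the 74 genes, 62 stayed at or below 0.1 RPKM in all 6 libraries of 3T3-L1, through day 7 of adipogenesis. Of the 9 genes, 3 (C1rb, H60b and Ifi202b) did so in all 6 libraries of the brown line. Some of the 74 overlap another of them and may share its reads. Mir675 lies inside H19, and Mir1906-1, AF357359 and Tsix overlap Meg3, Rian and Xist in turn. Beside the HOX genes the 62 held Cyba, a subunit of NADPH oxidase, at 28.4 RPKM in brown cells and listed at 0 in 3T3-L1, Cthrc1, a secreted matrix protein, at 23.8 RPKM and listed at 0, and the heparan sulfatase Sulf1, at 14.5 RPKM and listed at 0. Some called genes lay side by side: there were 41 runs of at least 3 neighbouring measured genes called in the same direction, 19 higher and 22 lower in brown cells. Of measured genes, 8.64% were called higher and 7.38% lower, and how many runs these shares give without clustering was not tested. The longest run held 10 genes around Hoxb, and a run of 8 lower genes was Ugt1a, whose members share exons and therefore reads. A run of 7 higher genes on chromosome 12 held Meg3 and Rian beside genes that overlap them. A further run of lower genes was the Ifi200 family on chromosome 1, to which Ifi202b belongs.

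The median difference also varied by chromosome, a summary chosen after the values were seen. Chromosome 15 stood highest at 0h, with 99 genes higher and 18 lower in brown cells of 453 and a median of 0.47. Chromosome 6 stood lowest, with 21 higher and 105 lower of 529 and a median of -0.48. These were the highest and lowest chromosomes at each of the 6 times, at 0.47 to 0.74 and -0.48 to -0.25. Chromosome 14 was at -0.29 at 0h and at 0.26 on day 7. The number of DNA copies was not measured, and its part in these values was not tested.

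**Figure D4:**
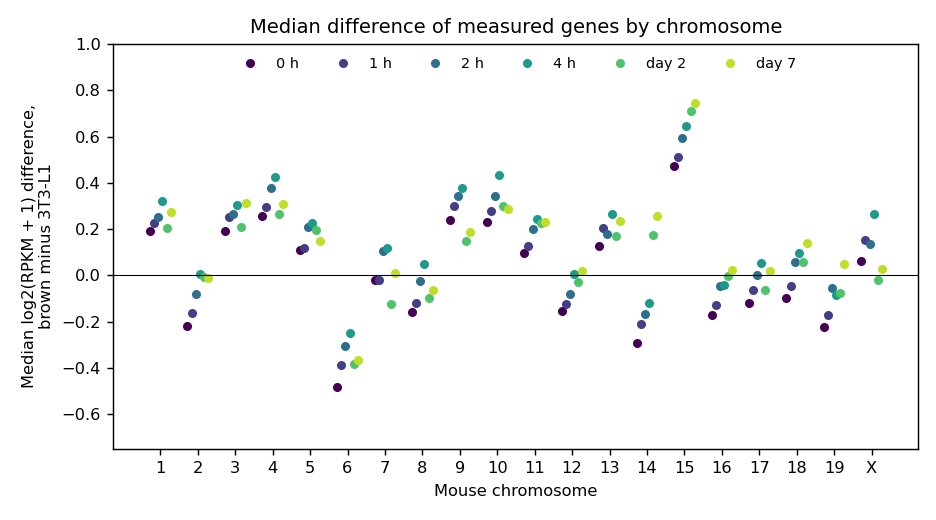
Median difference in log2(RPKM + 1), brown minus 3T3-L1, of the genes measured at 0h on each mouse chromosome, over the 6 times of the study (points from dark, 0h, to light, day 7). Chromosome 15 lies above and chromosome 6 below all others at every time.

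The other libraries of the lines, made after induction, give the same contrast again with 1 library each. The shares of measured genes higher and lower in brown cells were 9.49% and 7.63% at 1h, 10.9% and 7.07% at 2h, 11.5% and 6.18% at 4h, 11.8% and 8.01% on day 2 and 15% and 8.55% on day 7. Of the 944 genes higher at 0h, 843 (89.3%) differed by at least 1 in the same direction at 1h, 739 (78.3%) at 4h and 538 (57.0%) on day 7. Of the 806 lower genes, 688 (85.4%), 446 (55.3%) and 284 (35.2%) did. At all 6 times 393 of the higher and 129 of the lower genes kept their difference. The day 2 and day 7 files of each line carry headers of another style than the earlier ones, and a possible late batch and time cannot be told apart. The labels mark the brown libraries of day 2 and day 7 as duplicates of other deposited samples. The HOX list had a median of 1.45 at 0h and 1.30 on day 7, whereas the interferon-stimulated list was at -1.54 at 0h, -1.11 at 4h and 0.54 on day 7. The mitosis list was at 1.14 at 0h, 1.91 at 4h and 3.74 on day 7.

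**Figure D5:**
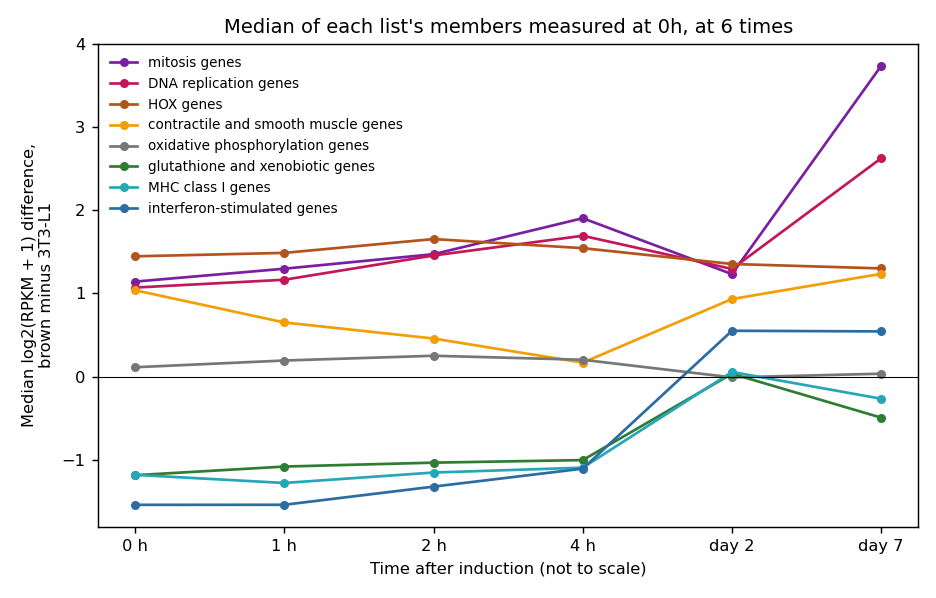
Median difference in log2(RPKM + 1), brown minus 3T3-L1, of the members measured at 0h of 8 gene lists, at 0 h to day 7 after induction (times not to scale, 1 library per line and time). The HOX line stays between 1.30 and 1.65, the mitosis and DNA replication lines end highest, and the interferon-stimulated, MHC class I and glutathione lines lie below -1 up to 4 h and at or above -0.5 on day 2 and day 7.

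Brown adipose tissue, sequenced once in adults and once in embryos, gave the levels of these genes in the depot itself. In adult tissue 402 of the 944 genes higher in brown cells (42.6%) and 520 of the 806 lower genes (64.5%) had at least 2 RPKM, beside 74.9% of all measured genes. In embryonic tissue 589 (62.4%) and 589 (73.1%) did, beside 85.0%. H19 was at 23.2 RPKM in adult and 917 RPKM in embryonic tissue, and Cdkn1c at 8.54 and 90.6 RPKM. Crabp1 was listed at 0 in adult tissue and was at 0.93 RPKM in embryonic tissue, and Sprr1a was listed at 0 and was at 0.13 RPKM. Hoxb9 was at 0.14 and 0.67 RPKM. The tissues hold many cell types beside precursors, and the depth was 5.35 M reads in the adult and 18.8 M reads in the embryonic library.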

How the data were processed

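Total RNA of both lines at 0h was taken up in Trizol and mRNA was enriched with a Dynabeads kit before Illumina library preparation, per the labels' protocols. Per the file headers, the deposited culture files give RPKM with 2 decimals. The deposited tissue files give a read count beside the RPKM. The submitters' processing notes name CASAVA 1.8.2 and the build mm9. The aligner, the counting rules and strand use were not given in the sources used here. Reads shared by overlapping genes or near-identical copies can therefore not be assigned.

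For each of 22836 symbols of 29082 transcripts, the transcript with the highest mean RPKM over the 14 libraries was kept. Of 49 transcripts whose symbol had the form of a date or a number, 48 were given a symbol again by accession. Chromosomes and gene order came from a RefSeq table of GRCm38, which placed 99.6% of measured genes on chromosomes 1 to 19 and X, and no coordinates were converted. Transcript lengths from the tissue counts gave the depth: low values (162 in 3T3-L1 at 0h) were all within 0.2 of a whole read. Files were processed with Python 3.11.15, pandas 2.3.3, numpy 2.4.6 and matplotlib 3.10.9. With 1 library each no p-value was computed, and biological and technical spread are unknown. The calling step was tested on simulated data in which every transcript was 2 kb long.

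The comparison and the 41 gene lists were chosen with earlier results of these data known. Named by rule were Pparg, Klf4 and Egr2, the 15 largest differences each way with the higher RPKM at least 10, every called HOX gene, and up to 5 called members of each other list (2 where none was called). Other genes named in the text were chosen after their values were seen. Alternatives covered the pseudocount, the floor on RPKM, 3 rescalings, the choice of transcript and the later libraries. Results of some genes are not reported here, and counts of lists include them.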

Additional observations from a re-analysis of the deposited data

Results flagged for a closer look

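For 9 genes chosen by the naming rule, the difference between the lines at 0h was followed by a difference of at least 1 in the opposite direction on day 7 of adipogenesis. With 1 library per line and time the change of direction was not tested. Of these genes 7 were lower in brown cells at 0h and higher on day 7, where the differences (brown minus 3T3-L1, log2 scale) were 3.08 for the neuropilin Nrp2, 2.40 for Pdk4, 2.34 for Hmox1, 1.78 for the p53 target Trp53inp1, 1.59 for Cdkn1b, 1.51 for Hoxc13 and 1.45 for the interferon-induced Rtp4. The other two were higher in brown cells at 0h and lower on day 7, at -1.58 for Mcam and -1.32 for the integrin Itga7. Of those whose 0h levels are not given above, Nrp2 was at 9.53 RPKM in brown cells and 44.8 RPKM in 3T3-L1 at 0h, Trp53inp1 at 7.31 against 30.04 RPKM, Rtp4 at 7.23 against 47.8 RPKM and Itga7 at 6.4 against 1.02 RPKM. The naming rule gave 183 called genes. Over all genes called at 0h, 42 of 806 lower ones differed by at least 1 the other way on day 7. Of 944 higher ones 15 did. The day 7 files carry headers of another style than those of 0h.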

How the results depend on the processing

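The counts of 944 genes higher and 806 lower in brown cells stayed within 1.5 times of these values for the pseudocounts, floors on RPKM, rescalings and transcript choices tried, at the 1h, 2h and 4h libraries, and with protein-coding genes alone (888 and 750). A difference of at least 2 left 258 and 162. Leaving out genes that overlap another gene, which was chosen after seeing the data, left 503 and 441 of 5622 measured genes (8.95% and 7.84%); fewer genes are counted by construction. Rescaling by the median of ratios checked nothing: over 10659 genes the median ratio of the lines was exactly 1, because 19 genes with equal values lay in the middle, so the values were multiplied by 1. The upper quartile and quantile scalings did change the values, giving 1013 and 739, and 891 and 855. Of 183 named genes that were called, 180 kept the call under all pseudocounts, scalings and transcript choices. Cox7a2, Gata3 and Sema3e lost it under quantile scaling. Most named genes were picked for the size of their difference, and the pseudocounts tried, 0.1 and 0.5, can only widen a difference. Most of these calls were therefore bound to hold, and the count says little about the other called genes. A floor of 5 RPKM in place of 2 ended the call of 19 of the 183, Zic1, Hoxc10 and Sfrp1 among them, since their higher RPKM lies below it. Differences turned round only in the later libraries: Angptl4 was at 0.26 at 2h and 2.01 at 4h, Trp53inp1 at 0.59 and 0.38, Efnb2 at -0.16 and -0.090, and at 4h Ddit3 was at 0.74 and Hbegf at -0.24. Induction had begun in those libraries, and the cause was not tested. The median of the matrix protease list was -0.03 and turned to 0.02 under upper quartile scaling. No paired analysis was possible because each line had 1 library at 0h. Counting error is small at these depths for transcripts of about 2 kb. It is larger for short ones, such as the 77 microRNA and 62 small nucleolar RNA genes measured. The spread between cultures is unknown.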
